A study of Mus musculus with 12 samples.

Results

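The genes described here are 33 genes of fat cells, taken from a list of names by their known roles. The list was drawn up with earlier results of these data known. All 33 were found on a single line each among the 33018 lines of the count table and the 32792 lines of the TPM table (transcript abundance scaled by gene length and to a common total). Of them, 30 are genes of white fat or of fat cells in general and 3 (Ucp1, Cidea and Ebf2) are genes of brown fat, which are kept apart below. RNA was sequenced from 12 MC38/hPD-L1 tumors, 4 per treatment. MC38 is a mouse colorectal adenocarcinoma cell line, here made to carry human PD-L1 and grown under the skin of C57BL6 mice (female C57BL/6NJ in the study's methods), so that all 3 groups share the tumor line, its human transgene and the host strain. The groups differ in 1 agent given into the peritoneum as a single dose: an Fc control protein, the anti-PD-L1 antibody durvalumab, or ALPN-202, a CD80 variant fused to an Fc that binds PD-L1 and CTLA-4 and engages CD28. Tumors were taken 72 h later and extracted whole. In whole tumors, fewer cells of a type and less RNA per cell cannot be told apart, and the labels do not say how much surrounding tissue was taken with each tumor.

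White fat cells store triglyceride in a single large droplet coated with perilipin and CIDE proteins, release fatty acids through a chain of lipases, and secrete hormones such as adiponectin and leptin. Their program is switched on by the transcription factors PPARγ and C/EBPα. Brown fat cells share much of this program and add the mitochondrial uncoupling protein Ucp1, which turns stored fat into heat. Fat lies directly under the skin, where these tumors were grown.

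Adiponectin (Adipoq), perilipin (Plin1), Cidec and leptin (Lep) define fat cells among the 33 genes, and the data below turn on how closely such genes moved together from tumor to tumor. As background, the 250 bases before the RefSeq transcription start of these 4 genes are shown, 5′ to 3′ on the gene's own strand. Matches to the C/EBP motif TTGCNNAA (both strands) are in capitals. A part of these windows in the levels was not tested. RefSeq (GRCm38.p6) gave a start for 23 of the 33 genes, and each of the 4 windows matched the NCBIM37 genome exactly and in 1 place, which gives the coordinates.
Adipoq (chr16:23146359-23146608, plus strand): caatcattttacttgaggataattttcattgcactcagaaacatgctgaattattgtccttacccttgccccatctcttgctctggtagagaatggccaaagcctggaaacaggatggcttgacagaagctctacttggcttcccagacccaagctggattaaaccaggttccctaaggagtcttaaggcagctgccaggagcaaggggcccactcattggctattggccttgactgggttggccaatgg
Plin1 (chr7:86877663-86877912, minus strand): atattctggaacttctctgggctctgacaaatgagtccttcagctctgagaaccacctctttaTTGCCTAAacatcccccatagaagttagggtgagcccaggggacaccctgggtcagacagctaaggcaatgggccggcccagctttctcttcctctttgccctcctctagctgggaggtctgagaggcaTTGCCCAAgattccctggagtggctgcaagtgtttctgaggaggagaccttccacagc
Cidec (chr6:113385755-113386004, minus strand): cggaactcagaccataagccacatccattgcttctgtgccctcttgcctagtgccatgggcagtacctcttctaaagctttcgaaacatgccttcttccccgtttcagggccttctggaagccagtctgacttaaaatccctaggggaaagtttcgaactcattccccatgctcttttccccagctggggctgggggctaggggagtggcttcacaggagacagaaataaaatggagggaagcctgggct
Lep (chr6:29009971-29010220, plus strand): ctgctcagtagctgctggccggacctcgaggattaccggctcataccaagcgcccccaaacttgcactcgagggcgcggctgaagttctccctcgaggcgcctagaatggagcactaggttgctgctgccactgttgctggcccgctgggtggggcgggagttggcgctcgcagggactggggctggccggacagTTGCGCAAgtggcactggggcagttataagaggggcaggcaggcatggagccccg
The motif stood in the Lep window at -55 and in the Plin1 window at -58 and -187, counted from the start to the first base of the match, and in no window of the other 21 genes. It is common, with 1 or more matches in 9.56% of all 32851 RefSeq windows of this length. A direct repeat of AGGNCA spaced by 1 base, a strict form of the PPARγ element, was found in 0 of the 23 windows and in 0.338% of all windows, and the EBF palindrome (TCCC, any 2 bases, GGGA) in 1 (Plin4) and in 0.779%. These matches describe the letters of the windows only.

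Total counts were 3988266 to 10692817 per tumor, with the lowest total in ALPN-202 replicate 4. Gene length set ALPN-202 replicate 4 and Fc control replicate 1 apart from the other 10 libraries. Relative to the median tumor, short genes (longest transcript at most 1019 bases) lay at a median log2 difference of 1.26 in the former and 0.84 in the latter, and long genes (6216 bases or more) at -0.98 and -0.95, against -0.18 to 0.19 in the others. The labels number the tumors but do not say that each came from a separate mouse, so p-values measure the spread between these samples. The study's methods speak of mice randomized to the subgroups whose tumors were sequenced. The study also describes a mouse given ALPN-202 without raised immune markers and speculates that its dose was incomplete. The labels do not say which tumor came from that animal.

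Fat cell RNA was unevenly spread over the 12 tumors, and 1 tumor held most of it. In anti-PD-L1 replicate 2 the 33 genes took 1.287% of all counts (95% Wilson interval 1.28 to 1.294, counting error only). The share was 0.273% in anti-PD-L1 replicate 4, 0.179% in Fc control replicate 4 and 0.159% in ALPN-202 replicate 4. In the other 8 tumors it lay between 0.0225% and 0.053%. Each treatment thus held at least 1 of the 4 tumors with the most of this RNA, and all 3 held tumors with little. Summed TPM of the 30 white fat genes spanned 242.5 to 2999 over Fc control tumors (median 366), 378 to 2212 over those given ALPN-202 (median 537) and 242.7 to 20960 over those given anti-PD-L1 (median 2667). The 3 brown fat genes summed to 0.144 to 3.37 TPM in 11 tumors and to 53.9 TPM in anti-PD-L1 replicate 2.

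**Figure D1:**
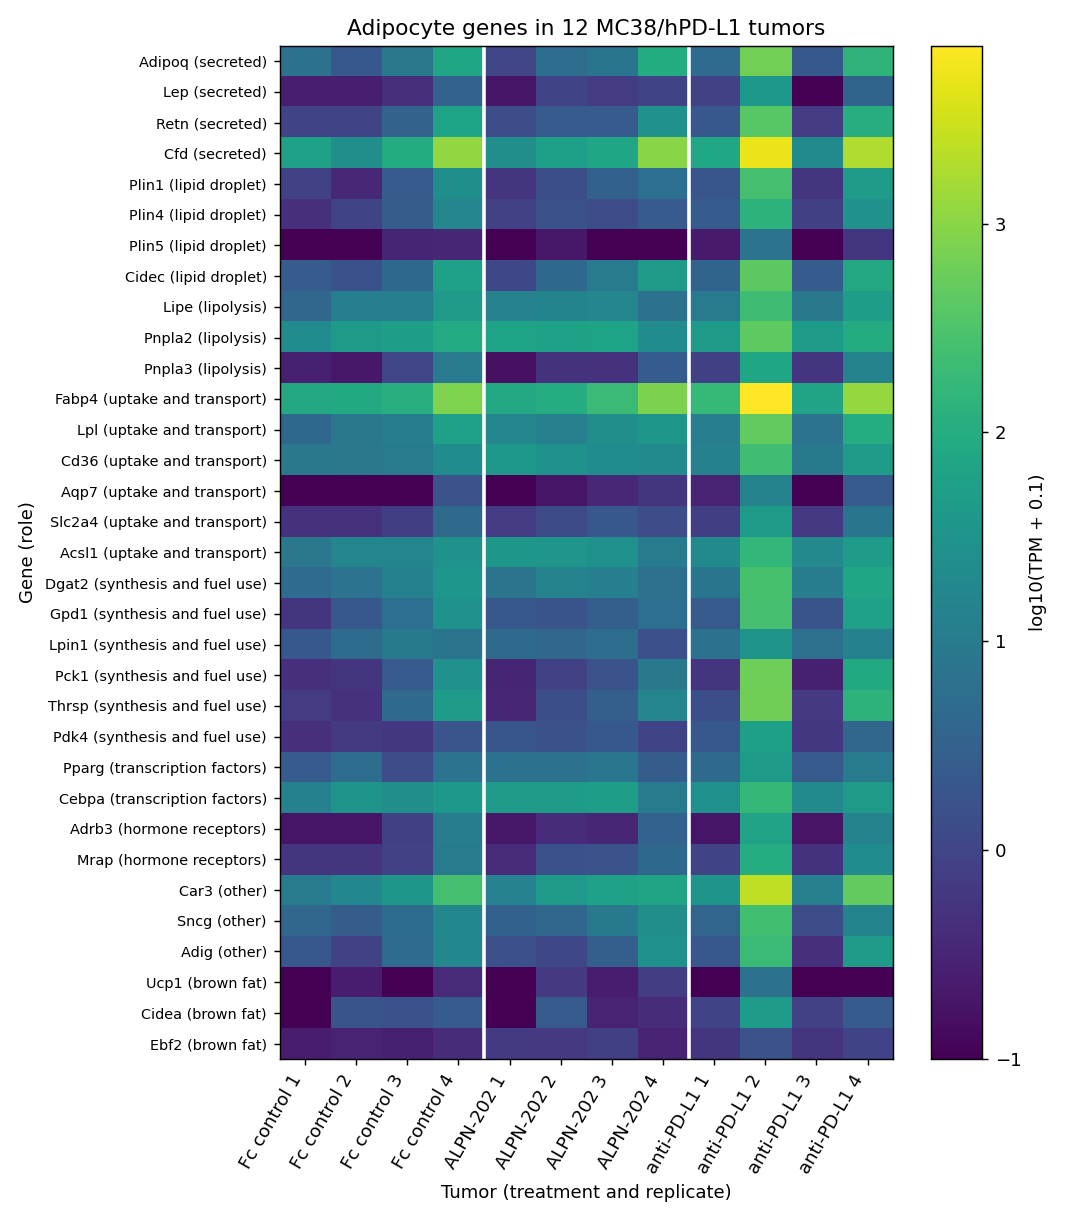
Level of each of the 33 genes (rows, with its role) in each of the 12 tumors (columns, by treatment and replicate), as log10(TPM + 0.1). Anti-PD-L1 replicate 2 is the brightest column in 33 of 33 rows, followed for most rows by anti-PD-L1 replicate 4, and Fc control replicate 4 and ALPN-202 replicate 4 stand out in the rows of Adipoq, Retn and Cfd.

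Among the secreted proteins, Adipoq was at 6.38, 2.08, 8.11 and 69.8 TPM in Fc control replicates 1 to 4, at 0.917, 5.54, 7.73 and 97.5 TPM in ALPN-202 replicates 1 to 4, and at 4.92, 668, 2.08 and 145 TPM in anti-PD-L1 replicates 1 to 4. All 3 groups therefore overlapped, with 1 high tumor among the Fc control and ALPN-202 samples and a pair among the anti-PD-L1 samples. Cfd, which encodes the complement protease adipsin, was the most abundant secreted member, at 25.2 to 96.7 TPM in 3 Fc control tumors and 1155 in replicate 4, at 25.0 to 73.1 TPM in 3 ALPN-202 tumors and 956 in replicate 4, and at 79.7, 5202, 20.3 and 1875 TPM in anti-PD-L1 replicates 1 to 4. Its 4 highest tumors were those of Adipoq. Retn, the gene of resistin, reached 387 TPM in anti-PD-L1 replicate 2, 105.5 in anti-PD-L1 replicate 4, 65.3 in Fc control replicate 4 and 30.5 in ALPN-202 replicate 4, and lay between 0.599 and 3.39 TPM elsewhere. Leptin RNA was scarce in every tumor but 1. Lep stood at 37.7 TPM (555 counts) in anti-PD-L1 replicate 2, at 3.52 and 3.28 TPM in anti-PD-L1 replicate 4 and Fc control replicate 4, and at 0 to 0.891 TPM in the other 9, with 0 counts in anti-PD-L1 replicate 3, which allows up to 3 counts, or 0.298 CPM (counts scaled to the total of the library).

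**Figure D2:**
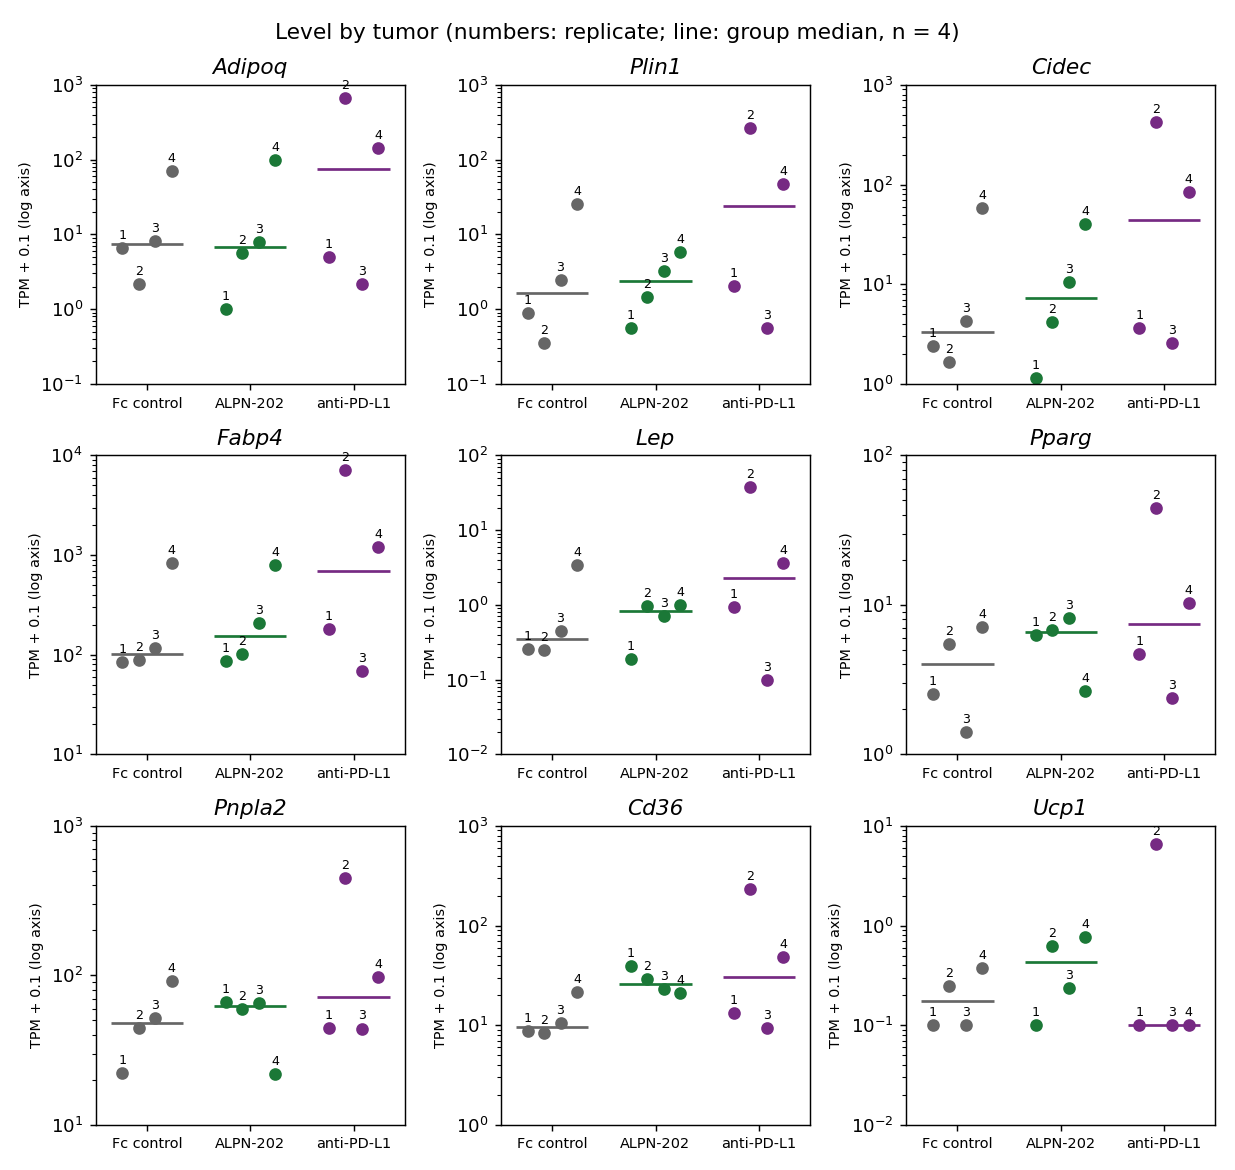
TPM + 0.1 on a log axis for 9 of the genes, 1 point per tumor, numbered by replicate, with a line at each group's median (n = 4); a point at 0.1 is a tumor at 0. Replicate 2 of anti-PD-L1 is the top point in all 9 panels, while the other points of Pparg, Pnpla2 and Cd36 lie closer together than those of Adipoq.

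Of the proteins of the lipid droplet, Plin1 and Cidec had the same 4 highest tumors as Adipoq in TPM, and Plin4 and Plin5 did not. Plin1, whose protein guards the droplet against lipases, was at 0.782, 0.255, 2.33 and 25.5 TPM in Fc control replicates 1 to 4, at 0.464, 1.36, 3.13 and 5.69 TPM in the ALPN-202 replicates and at 1.91, 262, 0.467 and 46.6 TPM in the anti-PD-L1 replicates. Cidec, which fuses small droplets into large ones, was at 2.32, 1.56, 4.15 and 58.5 TPM, at 1.03, 4.04, 10.5 and 39.9 TPM, and at 3.55, 429, 2.47 and 84.4 TPM in the same order. Both genes were highest in anti-PD-L1 replicate 2 by more than 5-fold over the next tumor (5.62-fold and 5.08-fold in TPM). Plin4, another coat protein, was at 138, 31.2 and 17.2 TPM in anti-PD-L1 replicates 2 and 4 and Fc control replicate 4. It was at 0.347 to 2.60 TPM in the other 9. Of these, ALPN-202 replicate 4, at 2.33 TPM, lay below Fc control replicate 3 and anti-PD-L1 replicate 1 (2.60 and 2.46 TPM). In CPM after TMM normalization it lay above both (12.1 against 5.76 and 6.34), and the 4 highest tumors of Plin4 were those of Adipoq. Plin5, the coat protein of oxidative tissues, had 63 counts in anti-PD-L1 replicate 2 and 0 to 4 counts elsewhere, with 0 in ALPN-202 replicate 4, and did not pass the filter on low counts.

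Of the lipases, Pnpla2 and Lipe had RNA in every tumor. Pnpla2, which encodes the lipase that starts triglyceride breakdown, was at 22.2, 44.6, 51.8 and 91.7 TPM in Fc control replicates 1 to 4, at 65.9, 59.5, 65.7 and 21.7 TPM in the ALPN-202 replicates and at 44.5, 449, 44.0 and 97.8 TPM in the anti-PD-L1 replicates. Its RNA was thus present at 21.7 TPM or more in all 12 tumors, and ALPN-202 replicate 4, high for Adipoq, was the lowest for Pnpla2 in TPM. In CPM after TMM normalization this tumor stood at 51.3, above Fc control replicate 1 (38.9) and anti-PD-L1 replicate 3 (48.2). Lipe, the hormone-sensitive lipase, lay between 3.90 and 219 TPM, with its 2 lowest TPM values in Fc control replicate 1 and ALPN-202 replicate 4. In CPM ALPN-202 replicate 4 was not among the lowest, at 22.5 against 9.69 in Fc control replicate 1 and 13.3 in anti-PD-L1 replicate 3. Pnpla3, a droplet-bound relative of Pnpla2, behaved like Plin1, at 73.5, 14.7, 10.4 and 2.43 TPM in its 4 highest tumors and 0.0639 to 0.913 TPM in the rest.

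Genes of fatty acid and glucose uptake ranged widely in level. Fabp4, a fatty acid carrier with the highest median level of the 33 genes (149 TPM over the 12 tumors), was at 84.7, 87.9, 116 and 832 TPM in Fc control replicates 1 to 4, at 86.1, 103, 206 and 799 TPM in the ALPN-202 replicates and at 181, 7083, 69.1 and 1202 TPM in the anti-PD-L1 replicates. Lpl, which frees fatty acids from lipoproteins, was at 4.19, 8.68, 11 and 59.1 TPM, at 17.5, 13.1, 25.2 and 37.1 TPM, and at 11.9, 489.8, 7.01 and 99.1 TPM in the same order. For both, replicate 4 of each treatment and anti-PD-L1 replicate 2 were the 4 highest tumors. Cd36, a fatty acid transporter also known from macrophages and endothelium, was at 8.68, 8.16, 10.5 and 21.3 TPM in the Fc control tumors, at 38.8, 29.1, 22.9 and 21.1 TPM in the ALPN-202 tumors and at 13.3, 234, 9.21 and 48.2 TPM in the anti-PD-L1 tumors. Acsl1, which activates fatty acids, lay between 8.2 and 162 TPM, and ALPN-202 replicates 1 and 2 came next after the pair of high anti-PD-L1 tumors. The insulin-responsive glucose transporter gene Slc2a4 ran from 0.388 to 43.7 TPM, and the glycerol channel gene Aqp7 had 168 counts in anti-PD-L1 replicate 2, 26 in anti-PD-L1 replicate 4, 18 in Fc control replicate 4 and 0 to 3 elsewhere, too few to pass the filter.

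Among genes of triglyceride synthesis and fuel use, Pck1 and Thrsp had the widest span. Pck1, which feeds glycerol synthesis in fat, was at 608 TPM in anti-PD-L1 replicate 2, at 88.2 in anti-PD-L1 replicate 4, at 28.7 in Fc control replicate 4 and at 8.78 in ALPN-202 replicate 4, against 0.164 to 2.29 TPM in the other tumors, so that its highest value was 501.9 times its median over the 12. Thrsp, a regulator of lipid synthesis, was at 623, 136, 46.4 and 15.9 TPM in the same 4 tumors and at 0.232 to 4.72 elsewhere. Gpd1, which makes glycerol phosphate, reached 261 TPM and Dgat2, the enzyme of the last step to triglyceride, 270.4 TPM in anti-PD-L1 replicate 2, from lowest values of 0.437 and 4.77 TPM. Pdk4, an inhibitor of glucose oxidation, was at 57.4 TPM there and at 0.358 to 3.94 TPM in the other 11. Lpin1, a phosphatidate phosphatase, varied least in this class, from 1.42 TPM in ALPN-202 replicate 4 to 31.7 in anti-PD-L1 replicate 2.

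The transcription factors that drive the program varied less than most of its products. Pparg was at 2.42, 5.40, 1.32 and 6.97 TPM in Fc control replicates 1 to 4, at 6.22, 6.66, 8.01 and 2.54 TPM in the ALPN-202 replicates and at 4.61, 44.2, 2.29 and 10.2 TPM in the anti-PD-L1 replicates. Cebpa was at 13.7, 32.2, 25.2 and 37.9 TPM, at 48.3, 45.9, 50.5 and 10.2 TPM, and at 27.3, 168, 21.0 and 41.9 TPM in the same order. After anti-PD-L1 replicate 2, ALPN-202 replicates 1 to 3 were the highest tumors for Cebpa, and none of these 3 was high for Adipoq. The highest tumor exceeded the median of the 12 by 7.61-fold for Pparg and 4.78-fold for Cebpa, against 94.6-fold for Adipoq and 62.8-fold for the middle gene of the 33.

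The remaining white fat genes repeated the pattern of Adipoq. Adrb3, the adrenergic receptor of fat cells, was at 63.0, 14.6, 10.7 and 3.25 TPM in anti-PD-L1 replicates 2 and 4, Fc control replicate 4 and ALPN-202 replicate 4, against 0.08 to 0.718 elsewhere. Mrap, an accessory protein of the ACTH receptor, was at 100.5, 22.4, 10.5 and 4.01 TPM in these tumors. Car3, a carbonic anhydrase abundant in fat and slow muscle, was at 2390, 483, 261 and 67.9 TPM. Adig (adipogenin) and Sncg (γ-synuclein) also had these as their 4 highest tumors, with 200.3 and 244 TPM in anti-PD-L1 replicate 2. Both are short transcripts (632 and 852 bases) that were higher in ALPN-202 replicate 4 than in Fc control replicate 4. Short length did not always go with this. In TPM, the short Fabp4 (637 bases) and Cfd (923 bases) had log2 ratios of -0.06 and -0.27 between these tumors, and the longer Adipoq (1292 bases) had 0.48. Over the 33 genes, anti-PD-L1 replicate 2 ranked highest in 33, anti-PD-L1 replicate 4 was the next in 30, and the 4 highest tumors were those of Adipoq in 17, all of them white fat genes. On CPM after TMM normalization, which scale each library differently, these numbers were 33, 22 and 20. As a description with no test, the Pearson r of log2 CPM with Adipoq over the 12 tumors lay between 0.427 (Cebpa) and 0.99 (Cfd) for the 29 other genes tested, and it carries library depth and gene length along with any shared source.

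Of the brown fat genes, Ucp1 and Cidea were found mainly in anti-PD-L1 replicate 2. Ucp1 had 48 counts (6.46 TPM) in that tumor and 0 to 4 counts in the other 11, with 0 counts in 6 of them. Cidea, a droplet protein of brown fat also made by the lactating mammary gland, had 241 counts (45.8 TPM) there and 0 to 13 elsewhere. In the same tumor Plin1 had 2266 counts, and the ratio of Ucp1 to Plin1 in TPM was 0.0247. This ratio was higher in Fc control replicate 2 (0.583) and in ALPN-202 replicates 2, 3 and 4 (0.389, 0.0432 and 0.117), but rests there on 1 to 4 counts of Ucp1. It was 0.0108 in Fc control replicate 4, and 0 in the tumors without Ucp1 counts. Anti-PD-L1 replicate 4, with 397 counts of Plin1, had 0 counts of Ucp1, which allows up to 3 counts, or 0.287 CPM. Ebf2, a factor of fat progenitors that directs them to the brown fate, had 3 to 20 counts in 11 tumors and 38 in anti-PD-L1 replicate 2. Its levels were closer together over the tumors, at 0.144, 0.188, 0.172 and 0.306 TPM in Fc control replicates 1 to 4, at 0.569, 0.542, 0.725 and 0.209 TPM in the ALPN-202 replicates and at 0.470, 1.62, 0.429 and 0.864 TPM in the anti-PD-L1 replicates. Of 17 further brown fat genes, 16 had counts and 7 were highest in anti-PD-L1 replicate 2 (in CPM). They include Cox8b, a subunit of cytochrome oxidase in heart, muscle and brown fat, with 158 TPM there and 0.617 to 28.6 elsewhere, and the potassium channel gene Kcnk3 with 11.3 TPM against 0 to 1.89. Dio2, Prdm16 and Zic1, further genes of the brown lineage, stood at 4.11, 4.27 and 3.40 TPM in that tumor, within their ranges over the other 11, and Lhx8 had 0 counts in all 12.

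In Fc control replicate 4, ALPN-202 replicate 4 and anti-PD-L1 replicates 2 and 4, 30, 25, 33 and 31 of the 33 genes had 10 counts or more. For such genes the make-up of the signal can be compared between these tumors. Over the 25 genes with at least 10 counts in all 4, anti-PD-L1 replicate 2 exceeded Fc control replicate 4 by a median log2 TPM ratio of 3.01 (SD over genes 0.56), from 2.12 for Lpin1 to 4.40 for Pck1. Anti-PD-L1 replicate 4 exceeded it by 0.75 (SD 0.44), from -0.26 for Sncg to 1.62 for Pck1. ALPN-202 replicate 4 lay at -1.65 (SD 1.05), from -2.88 for Plin4 to 0.65 for Adig. The spread over genes was thus widest in ALPN-202 replicate 4, where the long transcripts were lower relative to the short ones (Spearman rho with transcript length -0.64 over 25 genes, against -0.38 and -0.07). The ratio of Adipoq to Plin1 in TPM was 2.74, 2.55 and 3.10 in Fc control replicate 4 and anti-PD-L1 replicates 2 and 4. It was 17.2 in ALPN-202 replicate 4, where Plin1 had 30 counts. Fat levels in this tumor therefore depend on which gene is read: it was above Fc control replicate 4 for Adipoq, but Plin4, Dgat2 and Lipe had log2 ratios of -2.88, -2.56 and -2.56 to that tumor. They also depend on the scale. Cfd, Fabp4 and Cidec were lower than in Fc control replicate 4 in TPM. In CPM after TMM normalization they were higher (793.5 against 473.3, 457.8 against 235.3 and 61.7 against 44.7). Plin1, Plin4 and Lipe were lower in CPM too (9.80 against 21.7, 12.1 against 43.9 and 22.5 against 65.4).

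**Figure D3:**
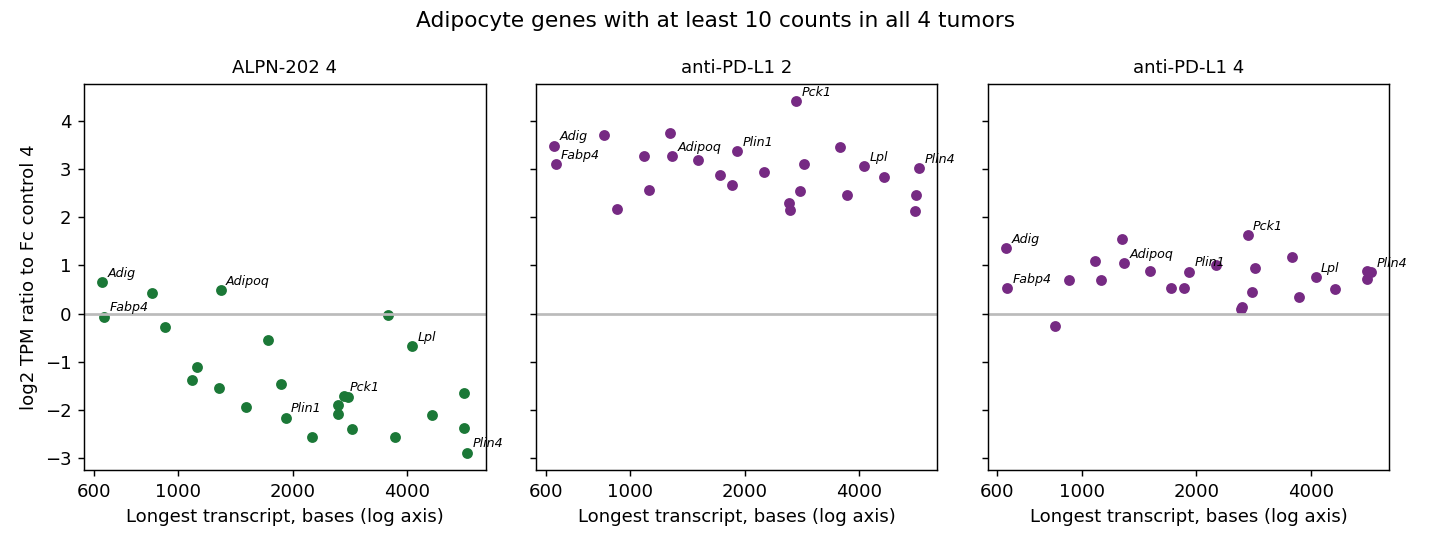
Log2 ratio of TPM to Fc control replicate 4 (y axis) in 3 tumors, anti-PD-L1 replicates 2 and 4 and ALPN-202 replicate 4, plotted against the longest annotated transcript in bases (log x axis), for the 25 genes with at least 10 counts in all 4 tumors. Points run downward with length in ALPN-202 replicate 4, from 0.65 (Adig) to -2.88 (Plin4), and lie in bands around 3.01 and 0.75 in the anti-PD-L1 tumors.

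The treatments were then compared gene by gene in 1 edgeR quasi-likelihood fit of all 12 tumors, with p-values adjusted by the Benjamini-Hochberg method over the 14142 genes that passed the filter on low counts. Of the 33 genes, 30 passed it (28 white and 2 brown); Plin5, Aqp7 and Ucp1 did not. The 3 comparisons share samples, since each group enters 2 of them, and their values are given side by side.

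No fat cell gene passed the adjusted threshold of 0.05 between ALPN-202 and Fc control. The edgeR calls were 0 of 30, beside 0% of all genes, and DESeq2 called 0 of the 27 members to which it gave an adjusted p, beside 1.4% of all genes higher and 0.318% lower. Of the 30 genes, 14 had a positive and 16 a negative fold change, with a median log2 fold change of -0.12, beside 0.04 over all genes tested. At an unadjusted edgeR p under 0.05, 1 gene was higher (background 7.2% of all genes) and 0 were lower (1.98%). That gene was Ebf2, with a log2 fold change of 1.41 ± 0.49 (SE; edgeR adjusted p = 0.394), and its groups did not overlap, at 0.344 to 0.706 CPM in Fc control and 0.98 to 1.70 in ALPN-202 tumors, although these rest on 3 to 17 counts each. Cd36 was the other member whose groups did not overlap, with 13.8 to 33.8 against 36.6 to 67.6 CPM, a log2 fold change of 1.37 ± 0.84 (SE; edgeR adjusted p = 0.754). Groups did not overlap in 2 of 30 members and in 4.18% of all genes. In TPM both pairs of groups did overlap, because ALPN-202 replicate 4 lay below Fc control replicate 4 (0.209 against 0.306 TPM for Ebf2 and 21.1 against 21.3 TPM for Cd36). The length of a gene is the same in every tumor, so CPM and TPM differ here in how each library is scaled. Macrophage markers, given beside these because macrophages also make Cd36, summed to 5481 to 8364 TPM in Fc control, to 12290 to 13510 TPM in ALPN-202 replicates 1 to 3 and to 7411 TPM in ALPN-202 replicate 4. All 10 of them were detected, and 10 of 10 had a positive fold change (median log2 0.72, with 0 calls). At an unadjusted edgeR p under 0.05, 5 of the 10 were higher (background 7.2% of all genes). Endothelial markers summed to 87.6 to 238 TPM in Fc control and to 102.1 to 328 TPM in ALPN-202 tumors, and 10 of 10 had a positive fold change (median log2 0.54, with 0 calls and 1 higher at an unadjusted edgeR p under 0.05); their highest sum, 418 TPM, was in anti-PD-L1 replicate 2. The part of macrophages and endothelium in the levels of Cd36, Acsl1 and Cebpa was not tested.

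The genes specific to fat cells had errors larger than their differences in this comparison. Adipoq had a log2 fold change of 1.18 ± 1.76 (SE), Cidec of 0.41 ± 1.66 and Plin1 of -1.07 ± 1.74. Each of these changed sign with 1 tumor: without ALPN-202 replicate 4 Adipoq stood at -2.19 and Cidec at -1.68, and without Fc control replicate 4 Plin1 stood at 1.53. Fabp4 had 0.79 ± 1.37, Lpl 0.63 ± 1.19, Pparg 0.60 ± 0.81 and Pnpla2 0.13 ± 0.67, and for all 7 of these genes the edgeR adjusted p was 1. The median over the members moved from -0.12 to 1.64 without Fc control replicate 4, with 28 of 30 positive, and to -1.11 without ALPN-202 replicate 4, with 7 of 31 positive. The interval of the Adipoq difference ran from -2.67 to 5.02 (95%), which leaves room for large differences in either direction.

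All 30 members had a positive fold change in anti-PD-L1 against Fc control tumors, and again 0 of 30 passed the adjusted threshold in edgeR, beside 0% of all genes. DESeq2 called 0 of 27, beside 0% of all genes higher and 0% lower. The median log2 fold change was 2.92, beside -0.03 over all genes tested. At an unadjusted edgeR p under 0.05, 14 of 30 were higher (background 1.44%) and 0 lower (0.629%), each with an adjusted p of 0.826. Groups did not overlap in 1 of 30 members (Ebf2) and in 2.62% of all genes, and for the other 29 anti-PD-L1 replicate 3 did not exceed the highest control. Without anti-PD-L1 replicate 2 the median was 0.74, with 27 of 30 positive and 1 at an unadjusted p under 0.05, whereas without Fc control replicate 4 it was 4.65, with 27 such genes. The number of such genes was 25 without either of anti-PD-L1 replicates 1 and 3, and 4 or 5 without any of Fc control replicates 1 to 3. It was 8 or 9 without any of ALPN-202 replicates 1 to 3, which are not in the comparison itself. The share of all genes at this threshold was not counted with tumors left out, so these numbers have no background beside them. The cause of the changes was not tested.

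The brown fat regulator Ebf2 had the fold change with the smallest relative error, 1.90 ± 0.48 (log2, SE), and Cidea had 3.12 ± 1.35, a value that became -0.15 without anti-PD-L1 replicate 2. Pdk4 had 4.24 ± 1.24 and Lep 3.37 ± 1.52. For uptake genes the values were 2.54 ± 0.87 for Cd36, 1.74 ± 0.63 for Acsl1, 3.04 ± 1.27 for Slc2a4 and 2.84 ± 1.25 for Lpl. In synthesis and breakdown, Dgat2 had 2.53 ± 0.99, Lpin1 1.27 ± 0.50, Pnpla2 1.54 ± 0.68 and Lipe 2.05 ± 0.94. Pparg had 1.80 ± 0.81 and Mrap 3.27 ± 1.5. For the remaining genes named in every comparison the values were 3.19 ± 1.84 for Adipoq, 3.40 ± 1.67 for Plin1, 2.93 ± 1.71 for Cidec and 2.89 ± 1.45 for Fabp4.

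**Figure D4:**
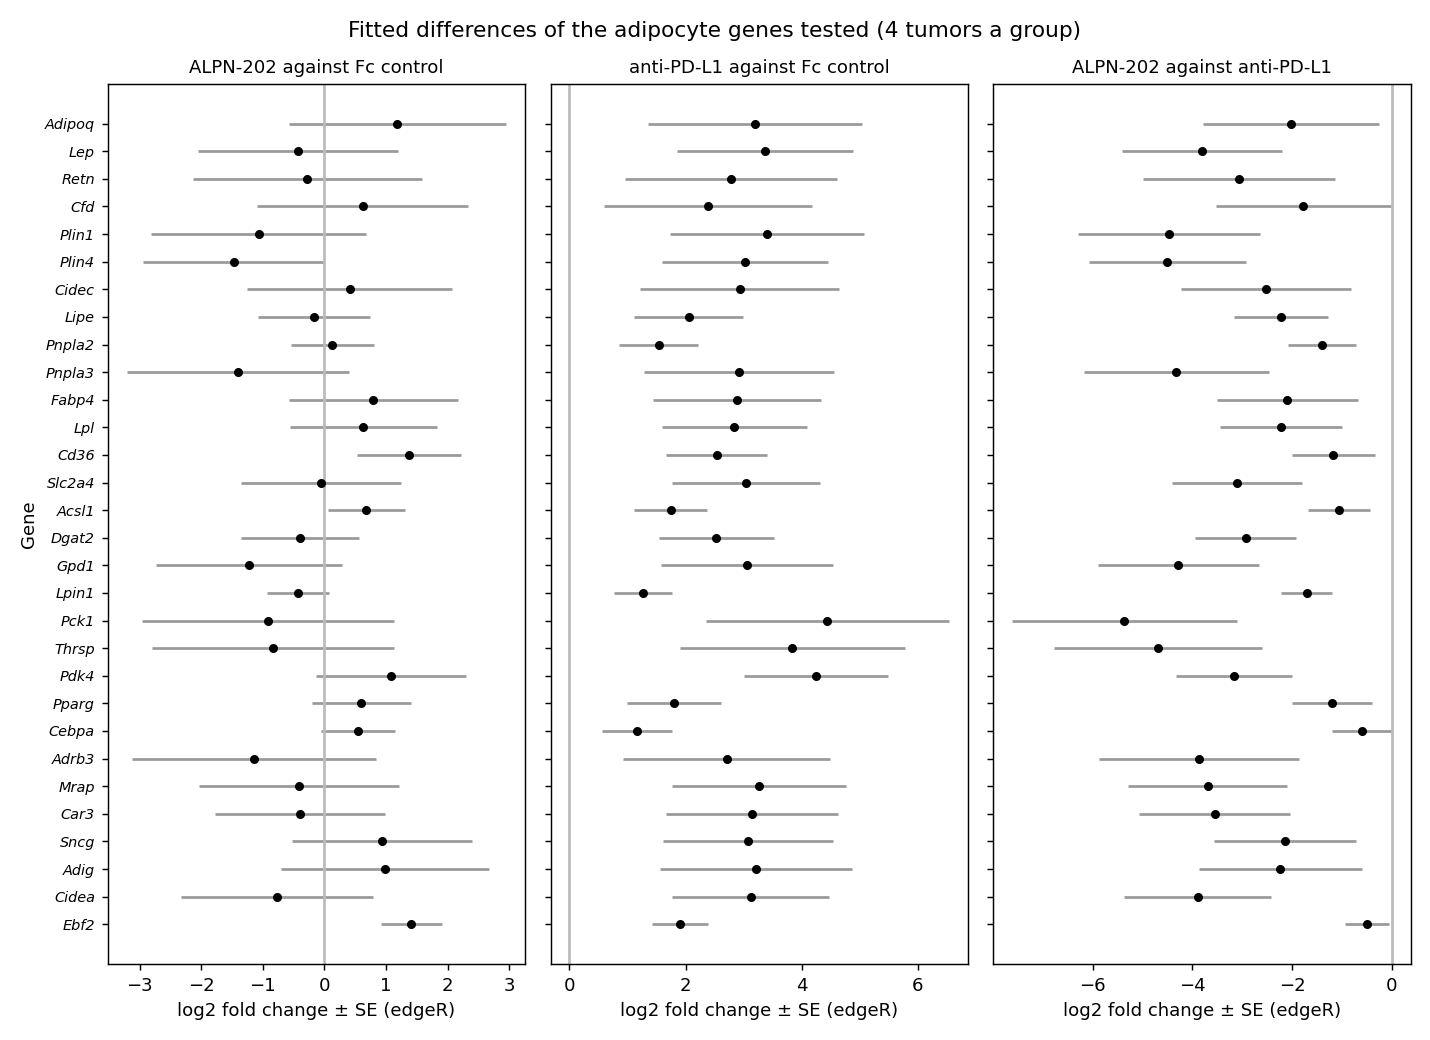
Log2 fold change (x axis) with its standard error from edgeR for the 30 genes tested (rows), in ALPN-202 against Fc control, anti-PD-L1 against Fc control and ALPN-202 against anti-PD-L1, 4 tumors a group. Points lie on both sides of 0 in the first panel (median -0.12), all above 0 in the second (median 2.92) and all below 0 in the third (median -2.72), and none passed the adjusted threshold.

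In ALPN-202 against anti-PD-L1 tumors the sign was reversed, with 0 of 30 members positive and a median log2 fold change of -2.72, beside 0.07 over all genes tested. The edgeR calls were 0 of 30 (0% of all genes), and DESeq2 called 0 of 26 (1.19% of all genes higher and 0.332% lower). At an unadjusted edgeR p under 0.05, 15 members were lower (background 2.47%) and 0 higher (6.82%). Groups did not overlap in 1 of 30 members (Lpin1, at 7.18 to 14.1 against 14.5 to 80.9 CPM) and in 7.55% of all genes. Without anti-PD-L1 replicate 2 the median was -0.53, with 9 of 30 positive and 1 at an unadjusted p under 0.05, and Adipoq, Fabp4, Pparg, Cd36 and Pnpla2 took the opposite sign (0.16, 0.18, 0.33, 0.63 and 0.05). Without ALPN-202 replicate 4 the median was -4.26, with 24 members lower at an unadjusted p under 0.05. This number was 4 or 5 without any of ALPN-202 replicates 1 to 3. Here too the share of all genes at this threshold was not counted with tumors left out.

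The 15 include 5 genes that feed or regulate triglyceride synthesis and the fuel switch Pdk4. Lpin1 had a log2 fold change of -1.70 ± 0.51 (SE; edgeR adjusted p = 0.322), Dgat2 of -2.93 ± 1.01, Pdk4 of -3.16 ± 1.17, Gpd1 of -4.28 ± 1.62, Pck1 of -5.36 ± 2.25 and Thrsp of -4.68 ± 2.09. Of the droplet proteins, Plin4 had -4.50 ± 1.58, Cidea -3.89 ± 1.47 and Plin1 -4.47 ± 1.83, while Cidec had -2.52 ± 1.71. The lipases Lipe and Pnpla3 had -2.22 ± 0.95 and -4.32 ± 1.86, and Pnpla2 had -1.40 ± 0.68. Slc2a4 had -3.10 ± 1.30, Lep -3.80 ± 1.61, Car3 -3.55 ± 1.51 and Mrap -3.69 ± 1.60. The values of Adipoq, Fabp4, Lpl, Pparg and Cd36 were -2.02 ± 1.77, -2.09 ± 1.41, -2.22 ± 1.23, -1.19 ± 0.80 and -1.17 ± 0.83 in the same order. The edgeR adjusted p of the 15 lay between 0.322 and 0.523, and that of the other 15 reached 0.694.

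Further genes of white fat cells were also often highest in the tumor with the most fat cell RNA. They were listed for their function, with earlier results of these data known. Of 50 such genes, 45 were tested and 37 were highest in anti-PD-L1 replicate 2 (in CPM), beside 1516 of the 14142 genes tested. Their median log2 fold change was 0.15 in ALPN-202 against Fc control, 0.58 in anti-PD-L1 against Fc control and -0.57 in ALPN-202 against anti-PD-L1, with 0 calls in each. At an unadjusted edgeR p under 0.05, 3 of the 45 were higher and 1 lower in the first comparison (background 7.2% and 1.98% of all genes). In the second, 12 were higher and 0 lower (1.44% and 0.629%), and in the third 3 were higher and 14 lower (6.82% and 2.47%). Scd1, the desaturase of fatty acid synthesis, reached 3952 TPM in anti-PD-L1 replicate 2 and 724 in anti-PD-L1 replicate 4, from 55.3 to 339 elsewhere, whereas the droplet protein gene Plin2, made by many cell types, lay between 294 and 667 TPM in all 12. The summed level of fat progenitor markers did not follow the members: it was 1681 to 3184 TPM, with 2353 in anti-PD-L1 replicate 2 and the lowest value in ALPN-202 replicate 4. Ly6a and Cd34 made up most of this sum (1295 and 822 TPM in anti-PD-L1 replicate 2). The sum therefore cannot show whether the rarer markers followed the members.

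Other tissues that could adjoin a tumor under the skin were read in the same tumors. Epithelial genes moved with the fat cell genes: their summed level was 1240 TPM in anti-PD-L1 replicate 2, 264 in anti-PD-L1 replicate 4, 130.5 in Fc control replicate 4 and 61.6 in ALPN-202 replicate 4, against 7.93 to 28.5 TPM elsewhere, and 13 of 13 were highest in anti-PD-L1 replicate 2. They were led by the simple keratins Krt19 and Krt18 at 382 and 376 TPM. The summed level of mammary gland genes (16 listed, 15 in the table, 13 detected) was highest in anti-PD-L1 replicate 2. It was 625 TPM there and 49.1 to 356 TPM elsewhere, and 9 of the 13 were highest in that tumor (in CPM). Their sum was lowest in ALPN-202 replicate 4 (49.1 TPM) and stood at 142.5 TPM in anti-PD-L1 replicate 4, below ALPN-202 replicate 2 (356 TPM). Of the most abundant, Acta2 and Areg were highest in anti-PD-L1 replicate 2 (220 and 102 TPM). Krt14 and Krt5 were at 35.1 and 26.1 TPM there, against 102 and 106.5 TPM in ALPN-202 replicate 2. Of the 9 tested, the median log2 fold change was 2.21 in anti-PD-L1 against Fc control, with 0 calls. At an unadjusted edgeR p under 0.05, 3 were higher (background 1.44% of all genes). The milk protein genes Csn2 and Wap had 0 counts in all tumors. Keratinocyte genes were highest in ALPN-202 replicate 2 (601 TPM) and Fc control replicate 2 (405 TPM), and at 30.8 TPM in anti-PD-L1 replicate 2. Skeletal muscle genes were lowest in ALPN-202 replicate 4 and anti-PD-L1 replicate 4 (18.4 and 16.3 TPM) and reached 1074 TPM in ALPN-202 replicate 3. The part of these tissues in the levels of the fat cell genes was not tested.

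**Figure D5:**
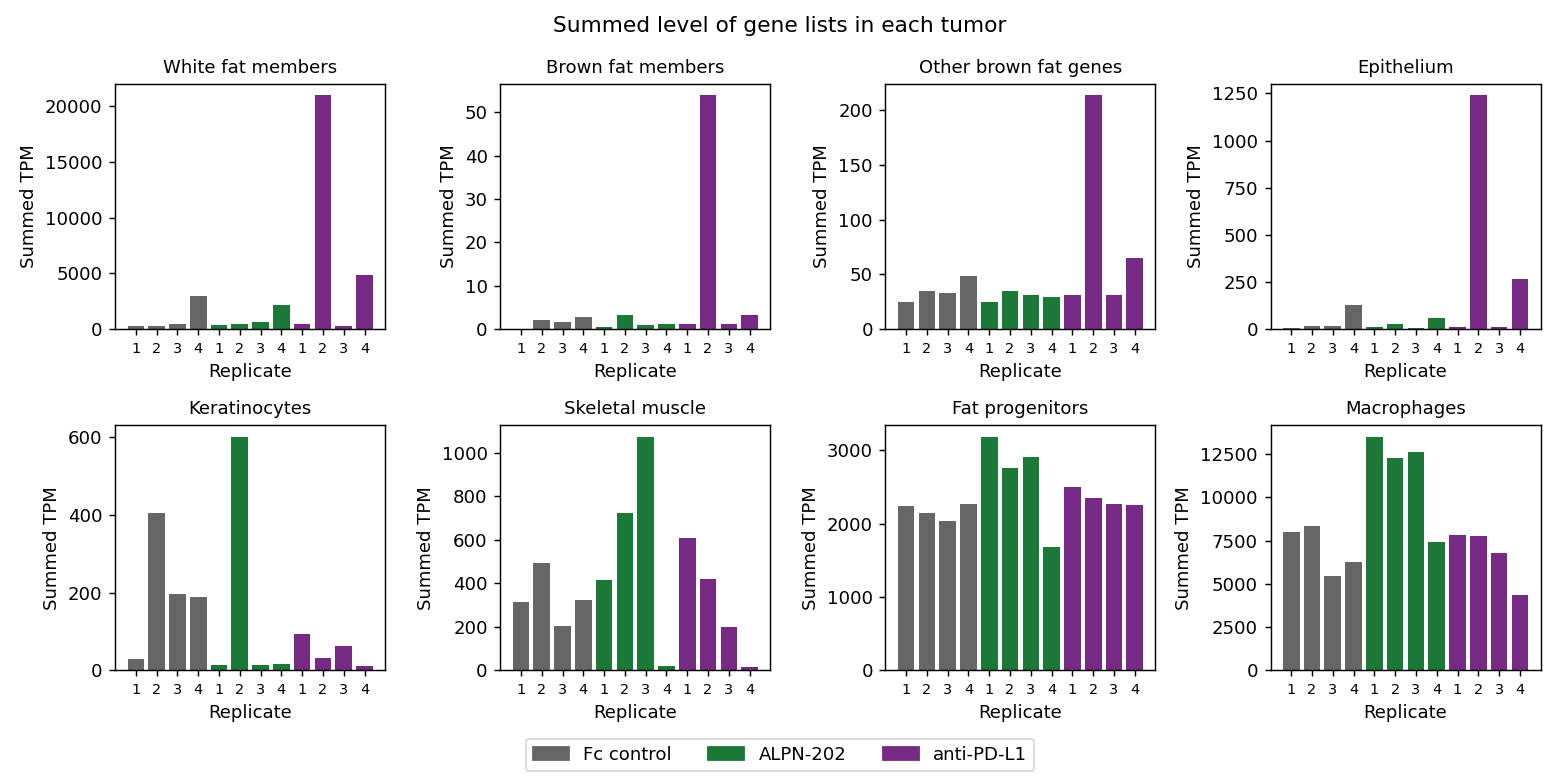
Summed TPM (y axis, linear from 0) of the white and brown fat genes described here and of 6 other gene lists, 1 bar per tumor, colored by treatment and numbered by replicate. Bars of the white fat, brown fat and epithelial lists peak in anti-PD-L1 replicate 2 (20960, 53.9 and 1240 TPM), while keratinocyte, muscle, progenitor and macrophage lists peak in ALPN-202 tumors.

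The 10 genes outside the 33 whose log2 CPM were most like those of Adipoq over the 12 tumors, by Pearson r and with no test, were Ephx2 (0.976), Glb1l2 (0.973), Mup-ps22 (0.971), Krt18 (0.966), Lgals12 (0.965), Hp (0.963), Wfdc2 (0.962), Ces1f (0.961), 1100001G20Rik (0.959) and Rasd1 (0.959). All 10 were highest in anti-PD-L1 replicate 2. Haptoglobin (Hp), a plasma protein made by liver and fat, was the most abundant, at 1635 TPM in that tumor, 428, 346 and 332 TPM in Fc control replicate 4, ALPN-202 replicate 4 and anti-PD-L1 replicate 4, and 35.4 to 114 TPM elsewhere.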

How the data were processed

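RNA of 12 tumors was sequenced after full-length cDNA synthesis (SMART-Seq v4) and Nextera XT library preparation, which keeps no strand, so reads of overlapping genes cannot be separated. The raw counts per gene, as deposited, were made by the authors with HTSeq; the aligner is not settled, since the Methods give STAR and the submitters' notes TopHat 1.4.1, beside HTSeq 0.4.1 and build NCBIM37. The authors also deposited TPM, derived from the counts with gene lengths, and each column sums to 999019 to 999706.

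Counts were normalized by TMM, filtered by filterByExpr (minimum count 10, minimum total 15) and fitted by group alone with the quasi-likelihood test of edgeR 4.0.16 under R 4.3.3, leaving 9 residual degrees of freedom; p-values were adjusted by Benjamini-Hochberg (threshold 0.05). SE is the absolute log2 fold change divided by the square root of F. Levels are TPM, since these allow comparison between genes. The tests were tested on simulated data. The 33 genes and all companion lists were chosen with earlier results of these data known. All 33 are named; fold change, SE and adjusted p (singly or as a range) are given for Adipoq, Plin1, Cidec, Fabp4, Lpl, Pparg, Cd36 and Pnpla2 and for any member with an unadjusted p under 0.05. Genes of other lists were drawn from the 4 most abundant of each; the brown fat genes Kcnk3, Prdm16, Zic1 and Lhx8 and the milk genes were singled out after their values were seen.

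Alternatives were RLE normalization, library size only, DESeq2 1.42.0, either no filter or a minimum of 10 counts in every tumor, limma 3.58.1 on log2(TPM + 1) and log2(TPM + 0.1), only the compared groups, the replicate number as a block, each tumor left out in turn, and Fc control replicate 1 and ALPN-202 replicate 4 left out together. Replicate numbers were not taken as pairs. Promoters came from RefSeq (GRCm38.p6). Python 3.11.15, SciPy 1.17.1 and Matplotlib 3.10.9 were used. Of the fibroblast and B cell lists, both highest in ALPN-202 replicate 3, summed TPM lay between 938 and 5098 and between 2.23 and 11.8.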

Additional observations from a re-analysis of the deposited data

Results flagged for a closer look

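Each of the 33 genes was looked at within each treatment, on log2(TPM + 1), for a tumor whose gap to the nearest of the other 3 was larger than Dixon's 95% critical share of the group's range for 4 samples. Of 99 sets of 4 tumors, 11 held such a tumor. The critical share gives about 1 in 20 by chance for evenly measured values. A set with 1 value above 0 and the other 3 at 0 is always flagged, as for Plin5, Aqp7 and Ucp1. The genes are also not independent of each other, so 11 of 99 cannot be set against that rate.

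Among the Fc control tumors, replicate 4 stood far above the others for Fabp4 (832.1 TPM), Mrap (10.46 TPM), Slc2a4 (4.589 TPM), Lep (3.275 TPM) and Aqp7 (1.618 TPM). In the ALPN-202 group, replicate 4 stood far above for Retn (30.47 TPM) and Adrb3 (3.248 TPM) and far below for Pnpla2 (21.71 TPM) and Cebpa (10.2 TPM). Long genes (6216 bases or more) were low in this tumor, and the longest transcripts of Pnpla2 and Cebpa (2625 and 2634 bases) are shorter than that. The part of length in these flags was not tested. Plin5 was at 0.1093 TPM in ALPN-202 replicate 2, a single count beside 0 in the other 3. Ucp1 was at 6.462 TPM in anti-PD-L1 replicate 2 and at 0 in the other 3 tumors of that group.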

How the results depend on the processing

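No member was called at the adjusted threshold of 0.05 in any comparison under any alternative run (0 in each). Medians without 1 tumor (or without both libraries that stood apart in length) ran from -1.37 to 1.64 in ALPN-202 against Fc control, from 0.74 to 4.65 in anti-PD-L1 against Fc control and from -4.27 to -0.53 in ALPN-202 against anti-PD-L1. In the first comparison, the sign also changed for Adipoq under limma (-0.11 with 1 and -0.22 with 0.1 added to TPM), for Adipoq and Cidec without ALPN-202 replicate 4 (-2.19 and -1.68), likewise for Fabp4 (-1.12) and Lpl (-0.17), without both libraries for Adipoq, Cidec, Fabp4 and Lpl (-2.41, -1.98, -1.37 and -0.47), for Plin1 without Fc control replicate 4 (1.53) and for Pnpla2 without Fc control replicate 1 (-0.06). Without anti-PD-L1 replicate 2 Cidea stood at -0.15 against Fc control, and in ALPN-202 against anti-PD-L1 Adipoq, Fabp4, Pparg, Cd36 and Pnpla2 stood at 0.16, 0.18, 0.33, 0.63 and 0.05. Without 1 tumor or both libraries, the values in the first comparison ran from -2.41 to 3.02 for Adipoq, -2.42 to 1.53 for Plin1, -1.98 to 2.94 for Cidec, -1.37 to 2.22 for Fabp4, -0.47 to 1.96 for Lpl and -0.06 to 0.50 for Pnpla2. They ran from -0.15 to 3.51 for Cidea in the second, and in the third from -5.38 to 0.16 for Adipoq, -4.03 to 0.18 for Fabp4, -1.56 to 0.33 for Pparg, -1.54 to 0.63 for Cd36 and -1.72 to 0.05 for Pnpla2. The cause of these changes was not tested.

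With the replicate block, 1 member in place of 14 had an unadjusted edgeR p under 0.05 in anti-PD-L1 against Fc control and 2 in place of 15 in ALPN-202 against anti-PD-L1, with medians of 2.01 and -1.71, and Adipoq stood at -0.02 in ALPN-202 against Fc control. In these 2 comparisons the number was 21 and 14 with DESeq2, 22 and 18 of 33 with no filter, and 8 and 4 of 12 with the strict filter. It was 5 of 25 and 11 of 26 with only the compared groups, and at most 2 and 1 with limma. The share of all genes at this threshold was not counted under these alternatives. The replicate numbers did not pair the tumors (5 of 12 same-numbered pairs correlated over 0.1, and 1 of 12 libraries best with its own number). Over all genes, edgeR called 0, against 189 higher and 43 lower with DESeq2 in ALPN-202 against Fc control and 158 and 44 in ALPN-202 against anti-PD-L1; without ALPN-202 replicate 4 edgeR called 365 and 63 in the former, and without both libraries 787 and 287, and 647 and 101 in the latter. The median of all genes moved to -0.121, 0.134 and -0.237 under limma on log2(TPM + 1), beside member medians of -0.02, 1.62 and -1.61. Depth limits Ucp1, Plin5 and Aqp7, which did not pass the filter, and genes with a median under 10 counts, such as Adrb3 (3.5), Mrap (6), Cidea (6), Adig (6.5), Lep (8.5) and Slc2a4 (8.5).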
